A study of Mus musculus with 12 samples.

Results

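The small nucleolar RNAs and small Cajal body RNAs of common lymphoid progenitors (CLPs) are described here across WT, ∆*Firre*, and *Firre* rescue mice. The genes were all those of the deposited expression table whose symbol starts with *Snord*, *Snora*, or *Scarna* and whose value was above 0 in at least 1 of the 12 libraries. Of 102 such symbols in the table, 60 met this rule (35 *Snord*, 18 *Snora*, and 7 *Scarna* genes), among 25277 genes above 0 and 47643 genes in all. A further 135 genes above 0 carry only a family name in capitals, such as *SNORA33*, and were not included. RNA was sequenced from CLPs, sorted from bone marrow as lineage-negative cells with low Sca1, low c-Kit, and IL7Rα on their surface, of male mice between 27 and 32 weeks old. Each group had 4 mice with 1 library each. ∆*Firre* mice carry a germline deletion of the whole locus of *Firre*, an X-linked long non-coding RNA gene, made with CMV-Cre. *Firre* rescue mice carry the same deletion together with a doxycycline-inducible *Firre* cDNA transgene and the CAG-rtTA3 driver, and were fed doxycycline, so that they differ from ∆*Firre* mice by transgenes and diet. CAG is a broadly active promoter, so that induction was not limited to CLPs.

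Small nucleolar RNAs pair with other RNAs and lead enzymes to the bases to be modified. Box C/D RNAs (*Snord* genes) guide methylation of the ribose, box H/ACA RNAs (*Snora* genes) guide the change of uridine to pseudouridine, and small Cajal body RNAs (*Scarna* genes) do the same for the RNAs of the spliceosome. A few act in the cutting of ribosomal RNA precursors instead. Most are released from introns of a host gene, often a gene for a ribosomal protein or a ribosome assembly factor, and have no poly(A) tail. The libraries were made from polyadenylated RNA, and a table of values per gene does not tell reads of a mature small RNA from reads of an unspliced host transcript, so levels below are reads placed on these genes and not amounts of mature RNA.

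*Firre* was at 26.4, 31.6, 25.2, and 30.2 TPM (transcripts per 1000000, a read share corrected for gene length whose sum is equal in all libraries) in WT replicates 6, 8, 10, and 11. It was listed at 0 in all 4 ∆*Firre* libraries and at 59.9, 135, 63, and 174 TPM in the rescue libraries (two-sided exact permutation test over 70 labelings, p = 0.0286 against WT for either group, the smallest p possible). The markers of lymphoid progenitors fixed for the check, 7 in number and including *Il7r* and *Flt3*, summed to between 6019 and 8589 TPM in WT, between 7129 and 7423 TPM in ∆*Firre*, and between 8658 and 9434 TPM in rescue libraries. *Dntt* made up most of these sums, and the members did not move as one, since *Il7r* and *Flt3* overlapped among the groups, *Ly6d* was at 1065 to 1560 TPM in rescue and 457 to 586 TPM in the other libraries, and *Kit* was at 48.2 to 62.3 TPM in rescue and 61.9 to 82.9 TPM in the others. Reads behind the values were recovered from the table and came to between 10991835 and 18176548 per WT or ∆*Firre* library and between 25783389 and 32575061 per rescue library. The 3 markers of basophils and mast cells (*Mcpt8*, *Cpa3*, and *Prss34*) summed to between 845 and 7559 TPM in WT, between 2501 and 3655 TPM in ∆*Firre*, and between 63.5 and 136 TPM in rescue libraries, with *Prss34* listed at 0 in rescue replicates 3 and 4. Markers of mature B and plasma cells, 4 in number, summed to between 171 and 334 TPM in rescue libraries, where WT had 685 to 1410 and ∆*Firre* 1442 to 3185. Sums of 4 myeloid markers were 211 to 302 TPM in WT, 201 to 277 TPM in ∆*Firre*, and 144 to 219 TPM in rescue libraries. *Mpo* set the lower rescue sums, at 102 to 166 TPM in rescue and 168 to 260 TPM in the other libraries, while *Elane*, *Csf1r*, and *Ly6c2* overlapped among the groups. Sums of erythroid markers lay between 6.27 and 61.6 TPM, and those of T cell markers between 2.47 and 10.5 TPM. *Cd3e* was at 0 in every rescue library, in WT replicates 8 and 11, and in ∆*Firre* replicates 9 and 11. *Cd4* and *Cd8a* overlapped among the groups. The rescue libraries also have a range of library numbers of their own. Genotype, library range, and depth cannot be told apart for the rescue group, and the part of the progenitor, myeloid, basophil, and B cell markers in the results below was not tested. In bulk samples, fewer cells of a type and less RNA per cell cannot be told apart.

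The small nucleolar RNA genes are short, and each value rested on few reads. The 60 genes are between 64 and 414 bases long by the length behind their TPM, with a median of 93.5 bases (80 for *Snord*, 132 for *Snora*, and 140 for *Scarna* genes). On a gene of 100 bases, 1 read was worth 2.84 TPM in the smallest library (WT replicate 8) and 0.897 TPM in rescue replicate 2. All 12 libraries together held 15485 reads on these genes, of which 10098 were on *Snord*, 5153 on *Snora*, and 234 on *Scarna* genes. The median gene had 108 reads over the 12 libraries, 29 genes had under 100, and 16 had 300 or more. The 5 genes with the most reads held 41.8% of all. Reads here carry no molecular identifiers, so that they are not independent molecules, and read numbers cover counting error only.

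Values at 0 were frequent and did not follow the groups alone. Of the 720 values (60 genes in 12 libraries), 235 were 0 and 72 rested on 1 to 3 reads. Only 11 genes were above 0 in all 12 libraries and 19 were above 0 in 6 or fewer. For 39 genes, 1 library held 10 or more reads while another library of the same group held 0. In 15 genes, over 50% of all reads came from 1 library. *Snora47*, for example, had 100 of its 136 reads in rescue replicate 3, and *Snord49b* had 182 of its 293 reads in the same library. The map of reads by gene and library shows this scatter within groups.

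**Figure D1:**
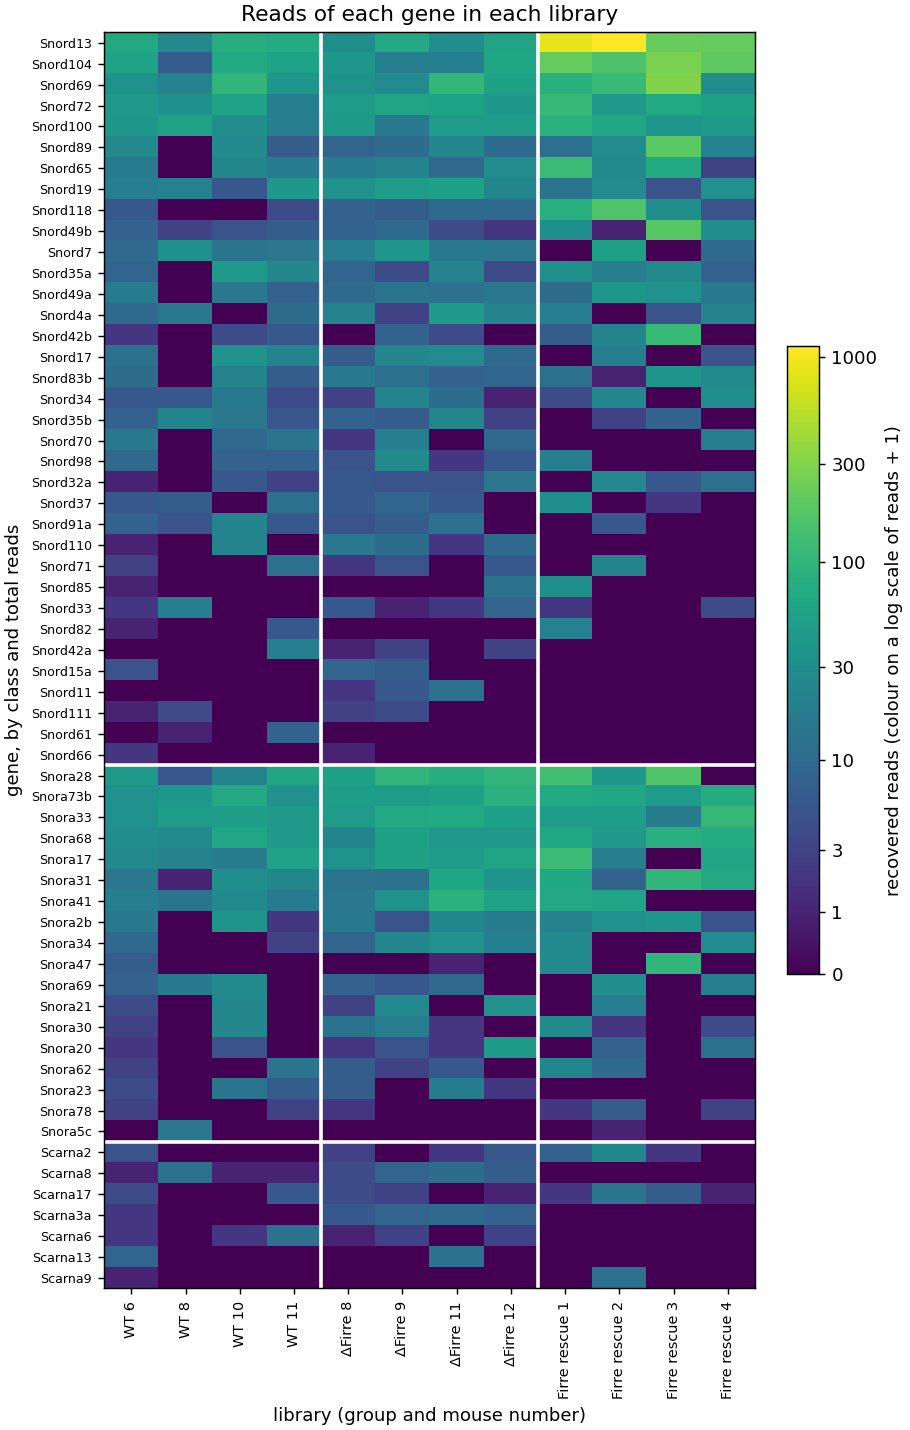
Reads recovered for each of the 60 genes (rows, by class and then by total reads) in each of the 12 libraries (columns, by group). Colour gives the reads plus 1 on a log scale. Of the 720 cells, 235 hold 0 reads, and zeros fall within each group.

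The rescue libraries, although sequenced more deeply, had fewer of these genes above 0 than the ∆*Firre* libraries. In WT replicates 6, 8, 10, and 11, 56, 26, 37, and 43 genes were above 0. The numbers were 52, 49, 45, and 43 in ∆*Firre* replicates 8, 9, 11, and 12, and 36, 39, 27, and 32 in rescue replicates 1 to 4. The medians were 40, 47, and 34 genes, and the rescue values lay below all ∆*Firre* values but overlapped WT, whose smallest library had the fewest genes of all. If every library were thinned to the reads of WT replicate 8, the expected numbers would be 53.8, 26.0, 36.4, and 42.7 in WT, 51.0, 48.3, 44.2, and 41.9 in ∆*Firre*, and 34.9, 36.3, 25.7, and 30.5 in rescue. This matches the total of recovered reads alone. Over all genes, too, fewer were above 0 in rescue libraries (15140 to 16835) than in ∆*Firre* libraries (17910 to 19098). WT libraries had 15472 to 19877. The lower number in rescue was therefore not particular to the small nucleolar RNA genes. At 0 in every library of a group were 1 gene in WT, 4 genes in ∆*Firre*, and 12 genes in rescue.

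The share of all reads that fell on these genes did not separate the groups. Scaled as reads per 1000000 recovered, 52.7 ± 6.16 fell on them in WT, 62.2 ± 9.56 in ∆*Firre*, and 73.7 ± 22.6 in rescue (SD, n = 4 each), and rescue libraries ranged from 46.0 to 98.6. *Snord13* alone took 34.8%, 46.1%, 10.1%, and 16.9% of these reads in rescue replicates 1 to 4, against between 2.6% and 9.4% in WT and ∆*Firre* libraries. Without *Snord13*, the values were 48.5 ± 5.18, 59.4 ± 9.94, and 51.8 ± 12.2 in the same order. The rescue libraries thus had fewer of these genes above 0 than ∆*Firre* libraries, as they had of all genes. Their reads per 1000000 overlapped those of both other groups.

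**Figure D2:**
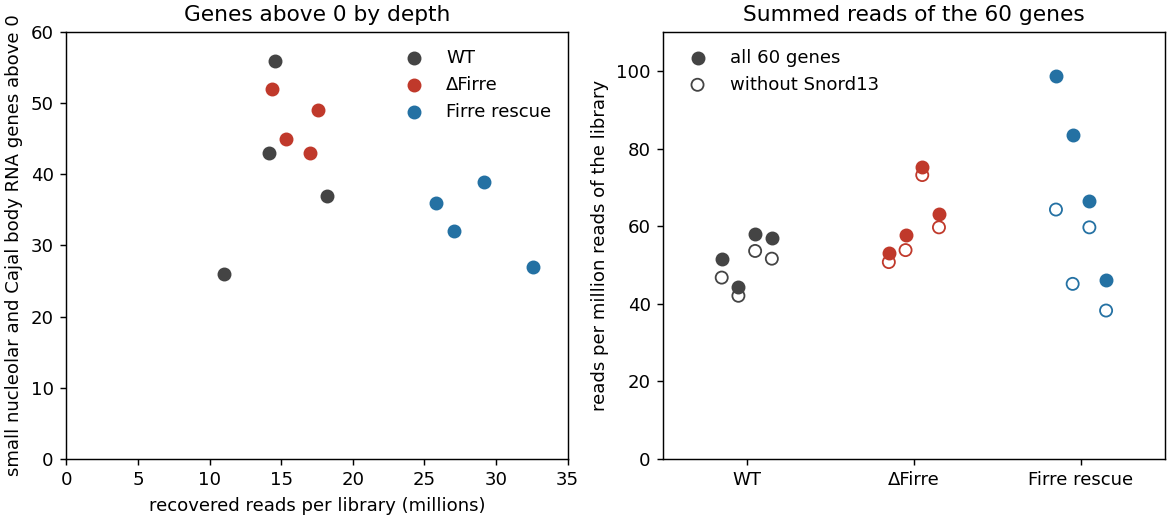
Left, number of the 60 genes above 0 against recovered reads for each library, by group. Right, reads on the 60 genes per 1000000 recovered reads in each library, with filled points for all genes and open points without *Snord13*. Rescue libraries hold the most reads and between 27 and 39 genes above 0, while ∆*Firre* libraries hold 43 to 52.

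Whether loss of *Firre* changed these RNAs was asked by setting ∆*Firre* against WT. In limma on log2(TPM + 1), 59 of the 60 genes had a mean TPM of at least 1 and were tested among 14479 genes, and *Snord66*, with 3 reads in all, was not. Genes with an adjusted p (Benjamini-Hochberg, over all genes tested) not above 0.1 were called. Only *Scarna3a* was called, 1 of 59 and higher in ∆*Firre*, where 3 of all genes tested (0.0207%) were called, and 0.0138% were called higher. This gene passed the filter on low values only through its ∆*Firre* libraries, so that its call is given as a description. The median standard error of a log2 difference was 1.02 for the small nucleolar RNA genes and 0.21 for all genes tested. The median log2 difference was 0.42 for the 59 genes, with 38 above and 21 below 0, and −0.06 for all genes tested. It was 0 without WT replicate 8, the library with only 26 genes above 0. Within the 2 ranges of library numbers that hold 2 WT and 2 ∆*Firre* libraries each, the median was 0.64 and 0, and no gene of the 59 was called (10 at an unadjusted p under 0.05 in either range). Unadjusted limma p-values under 0.05 were found for 5 of the 59 genes and for 767 of all 14479.

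*Scarna3a* (chromosome 1 of GRCm38, 159340307 to 159340424), a small Cajal body RNA in an intron of *Rfwd2*, was at 3, 0, 0, and 0 TPM in the WT libraries. It was at 8.79, 10.7, 14.1, and 10.2 TPM in ∆*Firre* and listed at 0 in all rescue libraries. All ∆*Firre* values lay above all other values, although they rested on 6, 9, 10, and 8 reads and the WT value on 2. The groups were apart in the higher direction for this gene alone among the 59, and for 0.843% of all genes tested. ∆*Firre* exceeded WT by 3.06 on the log2 scale (standard error 0.44, limma adjusted p = 0.0617). It was called in 8 of 24 other settings, with adjusted p from 0.00111 to 1. Leaving out any 1 of WT replicates 8, 10, and 11, of the 4 ∆*Firre*, or of the 4 rescue libraries ended the call, as did a fit of the 2 groups alone.

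The other 4 genes with an unadjusted p under 0.05 all had a difference above 0 and none was called. *Snora34* was at 15.2, 0, 0, and 4.73 TPM in WT, at 13.4, 29, 48.5, and 25.9 TPM in ∆*Firre*, and at 22.2, 0, 0, and 22.3 TPM in rescue libraries, so that the groups overlapped (log2 difference 3.15, limma adjusted p = 0.929). *Snord11* was listed at 0 in WT and at 4.88, 11.9, 28.1, and 0 TPM in ∆*Firre* (limma adjusted p = 0.889). It was called without ∆*Firre* replicate 12, the library at 0 (adjusted p = 0.0282). *Snord11* passed the filter on low values only through its ∆*Firre* libraries, so that this call is a description and no support. *Snord110* and *Snord118* had adjusted p-values of 0.929 each.

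For the 2 genes with the most reads, the difference between ∆*Firre* and WT was −0.58 for *Snord13* (95% interval −1.67 to 0.50) and −0.40 for *Snord104* (−1.58 to 0.77). High read numbers did not always give narrow intervals, since *Snora28*, with 802 reads, had a standard error of 1.21 and *Snora41*, with 400 reads, one of 1.18. *Snord69*, a box C/D RNA in an intron of *Gnl3*, was at 94.7, 78.2, 216, and 106 TPM in WT, at 89.7, 60.4, 256, and 123 TPM in ∆*Firre*, and at 118, 127, 345, and 41.1 TPM in rescue libraries. The groups overlapped throughout, and the log2 difference between ∆*Firre* and WT was 0 (95% interval −1.23 to 1.24). *Snora68* was at 48.2, 60.8, 84.7, and 71.4 TPM in WT and at 36, 68.7, 63.1, and 58.6 TPM in ∆*Firre*, a log2 difference of −0.23 (95% interval −0.80 to 0.34). *Snora73b*, a box H/ACA RNA that acts in processing of ribosomal RNA, differed by 0.24 (95% interval −0.31 to 0.78), and *Snord72* by 0.27 (−0.41 to 0.96). For *Snora33* the difference was 0.23 (−0.67 to 1.14) and for *Snord100* −0.16 (−1.17 to 0.84).

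Whether transgenic *Firre* RNA in the deleted background changed these RNAs was asked by setting rescue against ∆*Firre*. Of the 59 genes, 15 were called (25.4%), where 27.9% of all genes tested were called. Higher in rescue were 2 genes (8.58% of all genes tested were called higher) and lower were 13 (19.3% of all were called lower). By class, 9 of 34 *Snord*, 4 of 18 *Snora*, and 2 of 7 *Scarna* genes were called. The median log2 difference was −0.80 for the 59 genes and −0.16 for all genes tested, with 42 of the 59 below 0. It was −1.08 when 12 genes, each at 0 in either group with over 3 reads in the other, were set to a bound. This bound is the difference that 3 reads over the group at 0 allow. Among these 12 were *Scarna9* and *Snord82*, at 0 in ∆*Firre*, so they are not the same 12 genes as those at 0 in rescue. The direction of calls over all genes depended on the scaling. With each library rescaled by its median ratio, 13% of all genes tested were called higher and 12.9% lower, and of the 59 genes 2 were called higher and 8 lower, with a median of −0.71. The ∆*Firre* libraries serve in this comparison and in that against WT.

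**Figure D3:**
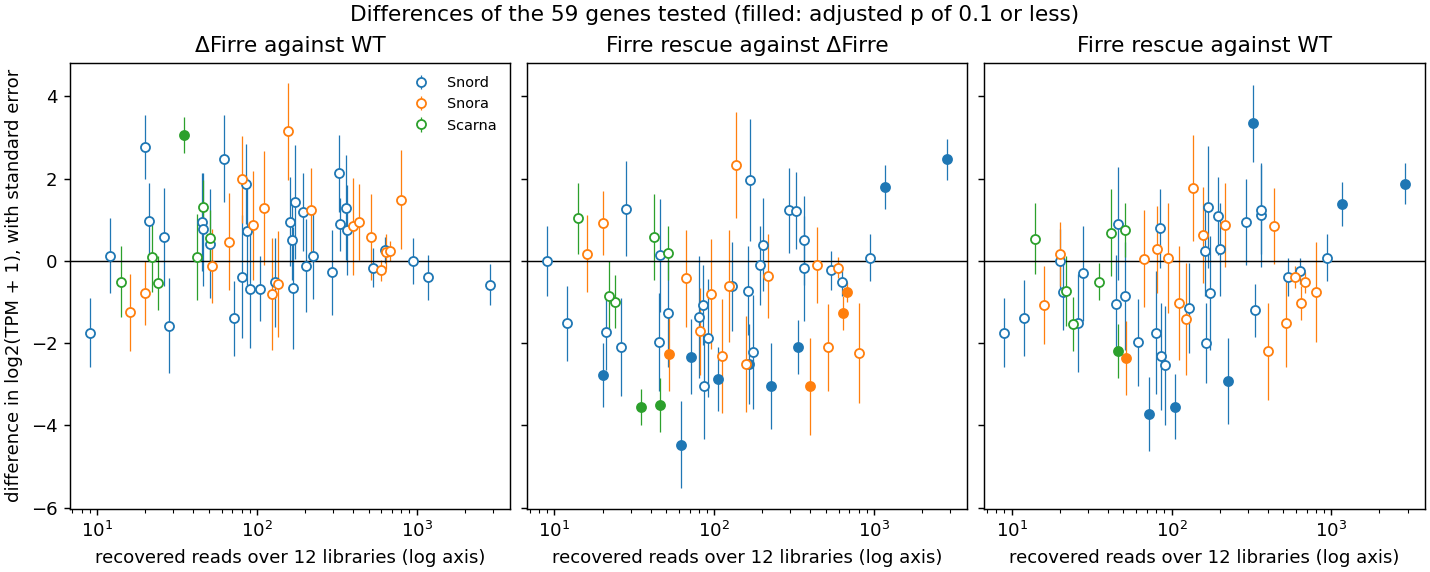
Log2 difference in TPM + 1 with its standard error (vertical axis) against recovered reads in all 12 libraries (horizontal axis, log scale) for the 59 genes tested, in the 3 comparisons. Colour gives the class and filled points the genes called. In rescue against ∆*Firre*, 2 genes, with 2875 and 1173 reads, were called higher and 13 lower.

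The 2 genes called higher have no annotated host. *Snord13* (chromosome 8 of GRCm38, 31149861 to 31149958) is a box C/D RNA transcribed from a promoter of its own that acts in processing of ribosomal RNA rather than as a methylation guide. Its TPM were 144, 71.1, 128, and 155 in WT, 63.1, 109, 56.8, and 101 in ∆*Firre*, and 931, 969, 198, and 215 in rescue libraries. All rescue values lay above all others, and rescue replicates 1 and 2 lay far above replicates 3 and 4. The values rested on 211 to 1123 reads per rescue library and on 26 to 78 in the others. The log2 difference was 2.47 against ∆*Firre* (standard error 0.50, limma adjusted p = 0.00613) and 1.88 against WT (standard error 0.50, adjusted p = 0.0239), while ∆*Firre* and WT differed by −0.58 (adjusted p = 0.997) with overlapping values. The call against ∆*Firre* held in all 24 other settings (adjusted p from 0.00333 to 0.0937) and that against WT in 23, all but limma-voom on the recovered reads (adjusted p = 0.176).

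*Snord104* (chromosome 11, 106500991 to 106501063), a box C/D RNA, was the other gene called higher. It was at 168, 28.4, 173, and 180 TPM in WT, at 117, 47.6, 56.3, and 156 TPM in ∆*Firre*, and at 328, 202, 371, and 299 TPM in rescue libraries. Rescue values again lay above all others, with replicates 1 to 4 closer to each other than for *Snord13*. These were the 2 genes whose rescue values all exceeded all ∆*Firre* values, where 6.31% of all genes tested had groups apart in this direction. The log2 difference was 1.80 against ∆*Firre* (standard error 0.54, limma adjusted p = 0.0370) and 1.39 against WT (adjusted p = 0.0987). Without ∆*Firre* replicate 9 the first was 1.53 (adjusted p = 0.109), and the second was called in 6 of 24 other settings, lost without any 1 library but WT replicate 11 (adjusted p of up to 0.198).

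*Snord118* (chromosome 11, 69073426 to 69073562), which also has its own promoter and acts in processing of ribosomal RNA, was at 9.35, 0, 0, and 6.44 TPM in WT, at 12.2, 8.64, 14.6, and 13.2 TPM in ∆*Firre*, and at 65.7, 108, 22.4, and 3.93 TPM in rescue libraries. Rescue replicates 1 to 3 lay above all other values and replicate 4 did not. Rescue exceeded WT by 3.35 on the log2 scale (standard error 0.94, limma adjusted p = 0.0300), while its difference from ∆*Firre* was 1.22 (adjusted p = 0.388). *Snord118* was lost against WT with only these 2 groups in the fit and with limma-voom (adjusted p of up to 0.113). *Snord7* (chromosome 11, 83294304 to 83294399), which also has no annotated host, went the other way. It was at 21.7, 96.7, 24.6, and 33.6 TPM in WT, at 40.2, 68.7, 32.5, and 27.6 TPM in ∆*Firre*, and at 0, 49, 0, and 10.9 TPM in rescue libraries. Values of rescue replicate 2 lay within those of ∆*Firre*, and the log2 difference was −3.04 (standard error 1.04, limma adjusted p = 0.0595). The call of *Snord7* was lost without ∆*Firre* replicate 8, 9, or 11 or rescue replicate 1 or 3 (adjusted p of up to 0.148). The other 3 genes with no annotated host are *Scarna* genes and were not called. In all, 3 of 7 genes with no annotated host were called (2 higher and 1 lower) and 12 of 52 with one (23.1%, all lower). Of all genes tested, 27.9% were called (8.58% higher and 19.3% lower). The annotation is an older one that may miss hosts, and the contrast between genes with and without an annotated host was not tested.

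**Figure D4:**
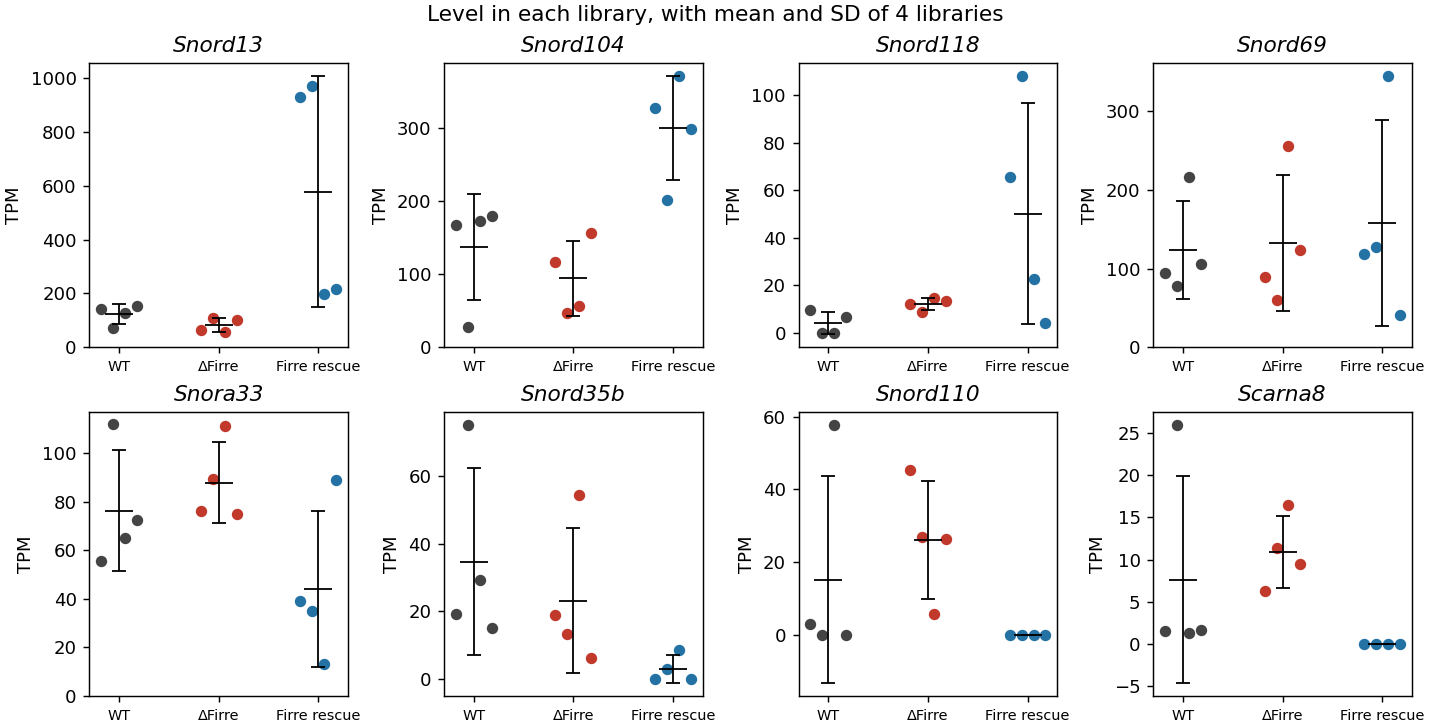
TPM in each library (points) with the mean and SD of each group (bars) for *Snord13*, *Snord104*, *Snord118*, *Snord69*, *Snora33*, *Snord35b*, *Snord110*, and *Scarna8*. Rescue values of *Snord13* and *Snord104* lie above all others, those of *Snord110* and *Scarna8* are all 0, and *Snord69* overlaps among the 3 groups.

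Of the 12 genes listed at 0 in all 4 rescue libraries, 3 were above 0 in all 4 ∆*Firre* libraries, namely *Scarna3a*, *Scarna8*, and *Snord110*. A fold against such a group is a lower bound, taken against 3 reads over the 4 libraries. It allows for counting error in the group at 0 only, and not for the spread between mice. *Scarna3a* was at least 19.6-fold lower than in ∆*Firre* (limma adjusted p = 0.000343). *Scarna8* (chromosome 4, 86586453 to 86586570), in an intron of *Haus6*, was at 1.61, 26, 1.3, and 1.66 TPM in WT and at 6.26, 11.4, 16.5, and 9.54 TPM in ∆*Firre*. It was at least 18.4-fold lower than in ∆*Firre* (limma adjusted p = 0.00401) and at least 9.89-fold lower than in WT (adjusted p = 0.0399), and the reads were at most 12 in any library. The bound against WT rested on WT replicate 8, which held 12 of the 15 WT reads. Without it the WT mean was 1.52 TPM on 3 reads, and no fold can be given. *Snord110* (chromosome 2, 130275515 to 130275573), in an intron of *Nop56*, was at 3.09, 0, 57.8, and 0 TPM in WT and at 45.2, 27, 5.79, and 26.3 TPM in ∆*Firre*, and was at least 22.6-fold lower in rescue than in ∆*Firre* (limma adjusted p = 0.0130). With *Snord19*, these were the 4 genes whose rescue values all lay below all ∆*Firre* values, where 15.6% of all genes tested did. *Snord11*, above 0 only in ∆*Firre* replicates 8, 9, and 11, was at least 11.9-fold lower in rescue (limma adjusted p = 0.0270), or 6.24-fold without ∆*Firre* replicate 11. Like *Scarna3a*, *Snord11* passed the filter on low values only through its ∆*Firre* libraries, so that the calls of both against this group are given as a description. *Snora23*, at 7.8, 0, 19.3, and 1.94 TPM in ∆*Firre* and 4.57, 0, 13, and 8.27 TPM in WT, was at least 16-fold lower than in ∆*Firre* (limma adjusted p = 0.0981), or 7.02-fold without ∆*Firre* replicate 11. The calls of *Scarna8* and *Snord110* against ∆*Firre* held in every other setting in which they could be fitted, and that of *Snora23* in 5 of 22. Those of *Scarna3a* and *Snord11* also held where fitted, which adds no support given how both passed the filter. The stricter filters, a mean TPM of at least 5 and at least 5 recovered reads, left both out.

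Other *Snord* genes called lower were above 0 in at least 1 rescue library. *Snord35b* was at 19.3, 75.2, 29.4, and 15 TPM in WT, at 18.9, 13.4, 54.3, and 6.16 TPM in ∆*Firre*, and at 0, 3.09, 8.69, and 0 TPM in rescue libraries. Rescue values lay below all WT values and overlapped those of ∆*Firre*, and the log2 difference was −2.87 against ∆*Firre* (standard error 0.79, limma adjusted p = 0.0249) and −3.55 against WT (adjusted p = 0.0107). Both calls held in all 24 other settings. *Snord19* (chromosome 14, 31016219 to 31016272), in an intron of *Gnl3*, was at 52.6, 78.6, 13.5, and 117 TPM in WT, at 97.2, 105, 143, and 56.4 TPM in ∆*Firre*, and at 20.2, 34.2, 6.22, and 47.5 TPM in rescue libraries. Its rescue values lay below all ∆*Firre* values but overlapped WT (log2 difference against ∆*Firre* −2.09, standard error 0.65, limma adjusted p = 0.0404), and without ∆*Firre* replicate 11 the difference was −1.90 (adjusted p = 0.104). *Snord69* lies in another intron of the same host and differed from ∆*Firre* by 0.08 (standard error 0.57, limma adjusted p = 0.940), so that 2 RNAs of 1 host gave different values in the same libraries. The difference between them was not tested.

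*Snord91a*, in an intron of *Tsr1*, and *Snord17*, in an intron of *Snx5*, were called lower against ∆*Firre* with values close to the threshold. *Snord91a* was at 18.1, 15.3, 42.2, and 14 TPM in WT, at 11, 12.5, 25.4, and 0 TPM in ∆*Firre*, and at 0, 5.79, 0, and 0 TPM in rescue libraries. It was apart from WT (log2 difference −3.72, limma adjusted p = 0.0167, called in all 24 other settings) but not from ∆*Firre* (−2.33, adjusted p = 0.0906, called in 5 of 24). *Snord17* was at 6.03, 17.5, 24, and 7.5 TPM in ∆*Firre* and at 0, 7.16, 0, and 2.23 TPM in rescue libraries, values that overlapped (log2 difference −2.51, limma adjusted p = 0.0879, called in 8 of 24 other settings). Without 1 library, *Snord91a* stayed called against ∆*Firre* only when ∆*Firre* replicate 12 or rescue replicate 2 was left out (adjusted p of up to 0.232 over all settings), and *Snord17* only without WT replicate 8 or 10 or rescue replicate 2 (up to 0.198).

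The *Snora* genes called were *Snora33*, *Snora73b*, *Snora41*, and *Snora23*, all lower in rescue, and most of them had reads in rescue libraries too. *Snora33* (chromosome 10, 23785347 to 23785451), in an intron of *Rps12*, was at 55.4, 112, 64.9, and 72.5 TPM in WT, at 76.3, 89.1, 111, and 74.7 TPM in ∆*Firre*, and at 39, 34.8, 13.2, and 88.9 TPM in rescue libraries. Rescue replicate 4 lay among the ∆*Firre* values and the other 3 lay below (log2 difference −1.26, standard error 0.42, limma adjusted p = 0.0545). *Snora73b* (chromosome 4, 132352322 to 132352526), in introns of *Rcc1* and *Snhg3*, was at 34.9, 56.9, 57.5, and 36.1 TPM in WT, at 51, 39, 51.9, and 77.5 TPM in ∆*Firre*, and at 38.4, 28.9, 21.2, and 39.9 TPM in rescue libraries. The highest rescue value lay just above the lowest ∆*Firre* value (log2 difference −0.75, standard error 0.25, limma adjusted p = 0.0537), and another gene, *Gm17300*, overlaps *Snora73b* on the opposite strand. *Snora41* (chromosome 1, 63179023 to 63179135), in an intron of *Eef1b2*, was at 23.3, 44.2, 130, and 77.1 TPM in ∆*Firre* and at 56.4, 40.8, 0, and 0 TPM in rescue libraries, with 31.9, 30.2, 34.9, and 28 TPM in WT. It held 68 and 60 reads in rescue replicates 1 and 2 and none in replicates 3 and 4 (log2 difference −3.05, standard error 1.18, limma adjusted p = 0.0883).

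Leaving out 1 library ended each of these 4 calls in some cases. *Snora33* was lost without ∆*Firre* replicate 9 or 11 (adjusted p of up to 0.131 over all settings) and *Snora73b* without ∆*Firre* replicate 12 or rescue replicate 3 (up to 0.294). *Snora41* stayed called without ∆*Firre* replicate 8 or rescue replicate 1 or 2 and was lost without any other library (up to 0.233), and *Snora23* stayed called only without WT replicate 8 or ∆*Firre* replicate 9 (up to 0.258). The *Snora* gene with the most reads, *Snora28*, was at 71.2, 13.4, 29.6, and 104 TPM in WT, at 88.8, 130, 123, and 142 TPM in ∆*Firre*, and at 115, 29, 120, and 0 TPM in rescue libraries, and was not called (log2 difference −2.24, limma adjusted p = 0.214). *Snora17*, at 100, 12.9, 0, and 47.4 TPM in rescue and between 55.9 and 81.2 TPM in ∆*Firre* libraries, was not called either (−2.10, adjusted p = 0.181). Nor was *Snora68*, at 55.1, 28.8, 60.6, and 60.8 TPM in rescue libraries, whose log2 difference of −0.16 had a 95% interval from −0.73 to 0.41.

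The *Scarna* genes had between 14 and 51 reads each over the 12 libraries. Of the 7, *Scarna3a* and *Scarna8* were called and the other 5 were not. *Scarna2* was at 2.12, 5.42, 0.457, and 0 TPM in rescue libraries and between 0 and 2.59 TPM in the others. *Scarna17* was at 2.77, 15.9, 8.38, and 1.34 TPM in rescue libraries, within the 0 to 16.5 TPM of WT. *Scarna6* and *Scarna13* were listed at 0 in all rescue libraries, and *Scarna9* had 13 of its 14 reads in rescue replicate 2. Their adjusted p-values in limma were above 0.1 in all 3 comparisons.

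Rescue was set against WT to ask how far the transgenic mice differed from mice with an intact locus. Of the 59 genes, 8 were called (13.6%), where 24.3% of all genes tested were called. Higher were *Snord13*, *Snord104*, and *Snord118* (4.82% of all genes tested were called higher), and lower were *Snord35b*, *Snord91a*, *Scarna8*, *Snord7*, and *Snora23* (19.4% of all were called lower). With the median ratio, 3 were called higher and 3 lower, and with quantile normalization 2 and 2. Rescue values lay above all WT values for 2 genes (3.55% of all genes tested) and below them for 3 (14.5% of all). The median log2 difference was −0.50 for the 59 genes, −0.52 with genes at 0 set to their bound, and −0.21 for all genes tested. *Snord7* differed by −2.92 (limma adjusted p = 0.0737) and *Snora23* was at least 16.5-fold lower (adjusted p = 0.0916), or 10.6-fold without WT replicate 10. *Scarna8* was lost with a pseudocount of 5, quantile normalization, only 2 groups in the fit, and limma-voom (adjusted p of up to 0.155). *Snord7* was lost without WT replicate 8, 10, or 11 or rescue replicate 1 or 3 (up to 0.182), and *Snora23* without any 1 library but WT replicate 8 or ∆*Firre* replicates 9 and 11 (up to 0.225). This comparison shares its rescue libraries with that against ∆*Firre* and its WT libraries with that of ∆*Firre* against WT.

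The hosts of these RNAs were read from the same libraries. An older Gencode annotation places 53 of the 60 genes inside a gene on the same strand, 47 in introns only and 6 across a host exon, in 43 hosts, of which 42 were found in the table. Genes for ribosomal proteins made up 11 of the hosts and held 17 of the small nucleolar RNA genes. Between ∆*Firre* and WT, 0 hosts were called with limma (5 at an unadjusted p under 0.05), and limma-voom called 0 of all genes tested. Between rescue and ∆*Firre*, 9 of the 11 ribosomal protein hosts were called, all higher, with a median log2 difference of 0.65 over the 11. Between 7 and 11 of them were called, all higher, under the other scalings. Of the other 31 hosts, 5 were called higher and 10 lower. Of all genes tested, 8.58% were called higher and 19.3% lower in this comparison.

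Of the 17 small nucleolar RNA genes in ribosomal protein genes, 15 (88.2%) had a log2 difference below 0 in rescue against ∆*Firre*. Of all genes tested, 63.7% did. None of the 17 was called higher and 2 (11.8%) were called lower, beside 8.58% and 19.3% of all genes tested. *Rps12* was at 3887, 3268, 3348, and 3439 TPM in WT, at 4219, 3111, 2933, and 3762 TPM in ∆*Firre*, and at 6901, 6717, 6077, and 6613 TPM in rescue libraries (log2 difference against ∆*Firre* 0.92, limma adjusted p = 0.000335), while *Snora33* in its intron differed by −1.26. Over all 52 pairs of a host and a gene inside it, 22 had the same sign and 30 the opposite one. In 22 pairs the host was called higher, and in 19 of these the gene inside had a difference below 0. Both were called in 9 pairs. In 4 of these the signs were opposite, among them *Snora33* in *Rps12*, *Snora73b* in *Rcc1*, and *Snora41* in *Eef1b2*. In 5 both were lower (*Scarna3a* in *Rfwd2*, *Snora23* in *Ipo7*, *Snord19* in *Gnl3*, *Snord91a* in *Tsr1*, and *Snord11* in *Nop58*). TPM sum to the same total in each library, and the differences between a gene and its host were not tested. Against WT, 10 of the 11 ribosomal protein hosts were called higher, where 4.82% of all genes tested were. Of the 17 genes inside these 11 hosts, 12 (70.6%) had a difference below 0, close to the 69.6% of all genes tested.

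**Figure D5:**
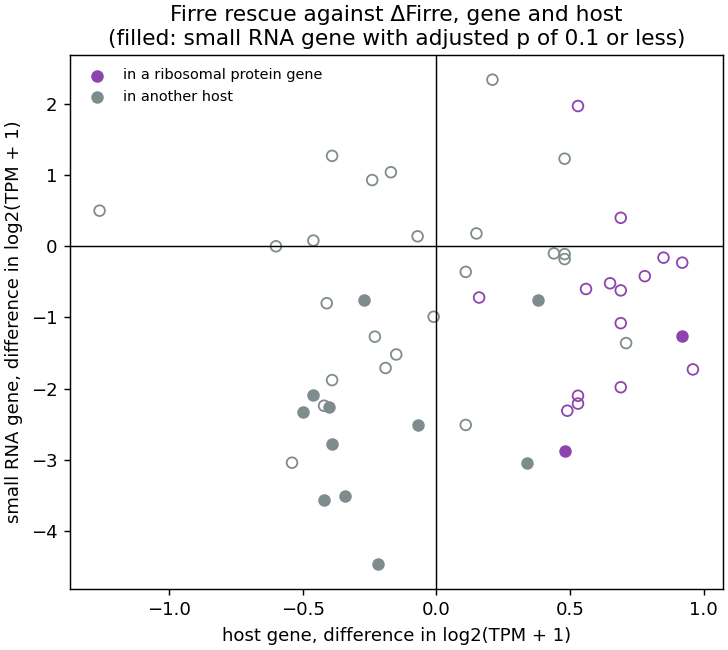
Log2 difference of the host (horizontal axis) and of the small nucleolar RNA gene inside it (vertical axis) in rescue against ∆*Firre*, for 52 pairs. Purple points are pairs with a ribosomal protein host and filled points are genes inside that were called. Of the 17 purple points, all lie right of 0 and 15 lie below 0. Of all genes tested, 63.7% had a difference below 0.

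Proteins that bind, assemble, and mature these RNAs were read from a list of 30 genes tested. Between ∆*Firre* and WT, 0 were called with limma (2 at an unadjusted p under 0.05, and 0 called by limma-voom). Between rescue and ∆*Firre*, 7 of 30 were called (23.3%, against 27.9% of all genes tested), 3 higher and 4 lower. This split moved to 9 higher and 3 lower with the median ratio and to 4 and 3 with quantile normalization. Of the core proteins of box C/D particles, *Nop58* had 90.3 ± 7.94 TPM in rescue libraries and 118 ± 8.48 in ∆*Firre* (mean and SD, n = 4 each) and differed by −0.39 on the log2 scale (limma adjusted p = 0.0363). The methyltransferase *Fbl* (0.11, adjusted p = 0.649), *Nop56* (−0.22, 0.313), and *Nhp2l1* (0.22, 0.257) were not called. Of the core proteins of box H/ACA particles, *Dkc1*, the pseudouridine synthase, had 166 ± 11.6 TPM in rescue libraries and 234 ± 26.3 in ∆*Firre* (−0.49, limma adjusted p = 0.0144). *Nhp2* (0.35, adjusted p = 0.181), *Nop10* (0.30, 0.179), and *Gar1* (−0.29, 0.190) were not called. Against WT, *Nop58* (−0.49), *Dkc1* (−0.49), and *Gar1* (−0.39) were called lower with limma.

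Among the factors of assembly and maturation, *Ruvbl2* (0.76, limma adjusted p = 0.00872) and *Pih1d1* (0.44, adjusted p = 0.0497), both of the complex that assembles the particles, were higher in rescue than in ∆*Firre*. *Pih1d1* was lost without ∆*Firre* replicate 9 or 11 or rescue replicate 1 (adjusted p of up to 0.136). *Phax*, an adaptor for transport of capped small RNAs, was higher by 0.34 (limma adjusted p = 0.0208), and *Tgs1*, which makes the trimethylated cap of small RNAs such as *Snord13* and *Snord118*, differed by −0.29 (adjusted p = 0.0878, lost in 11 of 23 other settings, among them the median ratio and leaving out WT replicate 6, ∆*Firre* replicate 8, 11, or 12, or rescue replicate 2 or 4, with adjusted p of up to 0.312). *Papd5*, which adds short A tails to small RNAs, differed by −0.45 (limma adjusted p = 0.0289), while *Parn*, which trims such tails, differed by −0.08 (adjusted p = 0.646). Against WT, 7 of 30 were called, 2 higher (*Pih1d1* and *Phax*) and 5 lower (*Nop58*, *Dkc1*, *Gar1*, *Tgs1*, and *Papd5*), where 24.3% of all genes tested were called. With the median ratio, 6 were called higher and 2 lower, and *Dkc1*, *Gar1*, and *Tgs1* were no longer among them. *Gar1* was lost in 16 of 23 other settings, among them leaving out any 1 library but WT replicate 10 and rescue replicate 1 (adjusted p of up to 0.520), and *Phax* without WT replicate 6, 8, or 10 or rescue replicate 2 or 4 (up to 0.127). Of 20 listed non-coding genes that host small nucleolar RNAs, 11 were found and 9 tested. Of these, *Snhg20* (−1.51, limma adjusted p = 0.00692) and *Snhg17* (−0.45, adjusted p = 0.0844) were lower in rescue than in ∆*Firre*, the second lost in 13 of 23 other settings, among them leaving out WT replicate 10 or 11, any 1 ∆*Firre* library, or rescue replicate 1 or 2 (up to 0.181), and *Gas5* differed by −0.09 (adjusted p = 0.497).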

How the data were processed

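CLP libraries of 12 mice were analysed from 1 table. Per the labels and methods, the authors made poly(A)+ libraries, trimmed reads (cutadapt), mapped them to mm10 (TopHat2 2.1.1), and counted them per Gencode gene (featureCounts). The deposited values are TPM, computed by the authors. Strand and multi-mapping settings are not given in the sources used here, so reads shared with near-identical copies, or with a gene on the opposite strand (4 of the 60 genes), are uncertain.

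Reads were recovered as TPM times gene length over a factor per library. All genes tested came out whole (within 0.01) in every library. For 59 of the 60 genes of the class the length came from an older annotation. The fit took genes whose mean TPM was 1 or more, as log2(TPM + 1), with limma 3.58.1 in R 4.3.3 (lmFit, eBayes with trend), the 3 groups together, Benjamini-Hochberg adjustment over all 14479 genes, called at 0.1. A fold change on this scale understates that of low genes. Permutation tests used Python 3.11.15. Each 95% interval comes from this fit. Positions are RefSeq's for GRCm38.p6, whose length equals that behind TPM for 6 genes.

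Genes were named by rule. In each class these were the 5 with the highest mean TPM and the 5 with the most reads, every *Scarna* gene, every called gene (the 6 largest rises and falls where over 12), their hosts, and the core proteins. The host of 1 gene so named is not reported here. *Snora34*, *Snora47*, *Snord49b*, *Snora73b*'s antisense partner, and the maturation factors and *Snhg* genes given with values were chosen after their values were seen. The genes and lists were chosen with earlier results of these data known. Alternatives were other pseudocounts (0.1 and 5), filters, scalings, fits, thresholds, and single libraries left out. Fits within each range of library numbers were chosen after seeing the data.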

Additional observations from a re-analysis of the deposited data

Results flagged for a closer look

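In 6 of 66 groups of 4 values looked at, on log2(TPM + 1), 1 library lay far from the other 3. Chance gives about 1 in 20 if values follow a normal distribution. Values of 0 or of few reads do not follow one, so that the 6 of 66 cannot be read against this rate. *Snord104* was at 28.4 TPM in WT replicate 8, the lowest of its group. *Scarna8* was at 26 TPM in the same library, the highest of its group. *Snord72* was at 53.7 TPM in WT replicate 11, the lowest. *Snord100* was at 36 TPM in ∆*Firre* replicate 9, the lowest. *Snora68* was at 28.8 TPM in rescue replicate 2, the lowest, and *Snord91a* was at 5.79 TPM there, the highest, with the others at 0. WT replicate 8 is the library with the fewest reads.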

How the results depend on the processing

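Between ∆*Firre* and WT, the 1 gene of the class called became 0 with a pseudocount of 0.1, a mean TPM of at least 5, at least 5 recovered reads, only 2 groups, limma-voom, the replicate block, either library range alone, and an adjusted p of 0.05, and was 0 to 1 with single libraries left out, where the gene called without ∆*Firre* replicate 12 was *Snord11* and not *Scarna3a*. Between rescue and ∆*Firre*, 15 became 8 with no filter and 8 at an adjusted p of 0.05, and 8 to 15 with single libraries left out (8 without ∆*Firre* replicate 11, 9 without ∆*Firre* replicate 9 or rescue replicate 3). Between rescue and WT, 8 became 5 with no filter, at least 5 recovered reads, no trend, or an adjusted p of 0.05, 4 with quantile normalization or only 2 groups, and 3 with limma-voom, and 5 to 10 with single libraries left out (5 without rescue replicate 3). The 7 proteins of the particles called between rescue and ∆*Firre* became 12 with median ratio rescaling and 13 with limma-voom. No difference of a called gene of the class changed sign. The causes were not tested.

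Rescaling by the median ratio moved the median log2 difference of all genes from −0.16 to −0.05 between rescue and ∆*Firre*, and from −0.21 to −0.03 against WT, and that of the small nucleolar RNA genes from −0.80 to −0.71 and from −0.50 to −0.33. The *Firre* differences, −4.87 and 1.75, were −4.92 to −4.82 and 1.47 to 1.98 with single libraries left out, where the permutation test cannot pass 0.05. WT and ∆*Firre* share mouse numbers 8 and 11, whose correlations of deviations were −0.033 and −0.041, so that the numbers gave no sign of pairing.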
